A study of Danio rerio with 16 samples.

Results

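Genes whose products tie the cytoskeleton together were followed through the adult gonads of this series: macf1a (ENSDARG00000028533) and daam1a (ENSDARG00000015059). They are 2 of the 32520 genes in the deposited count table, found there and in the table of normalized counts by their Ensembl identifiers, and both were counted in each of the 16 libraries. They were selected on their normalized counts and fold change in exposed against control females, where both read higher, so that difference is described below and not tested.

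Macf1 is a spectraplakin, a very long protein that binds microtubules and actin filaments and links them. In zebrafish, macf1a is the gene mutated in the magellan mutant, in which the oocyte nucleus is misplaced and the Balbiani body, the aggregate of organelles and RNA that marks the vegetal side of the young oocyte, is not taken apart on time. Daam1 is a formin, which nucleates and lengthens unbranched actin filaments. It acts downstream of Dishevelled in Wnt planar cell polarity signalling, which orients cells within a sheet.

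The fish were adult zebrafish of the AB strain, aged 4 months, kept for 32 days at 0, 50, 100 or 200 μg/L exemestane (EM), a steroidal inhibitor of aromatase, the enzyme that makes estrogen from androgen. Gonads of 2 females and 2 males per concentration were sequenced as stranded polyA+ RNA, 1 library per fish, which gives 8 groups. The labels call the fish at 0 μg/L control, and the methods describe a solvent control in dimethyl sulfoxide, in which EM was dissolved. Each treatment had a single tank holding 3 males and 3 females, so that tank and treatment cannot be told apart. The 6 exposed fish of a sex are called EM-females and EM-males.

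Between 4043394 and 13821205 reads per library were counted on genes, with a median of 12210745.5 in the EM-females and 5666585.5 in the EM-males. Oocyte and male germ cell markers matched the labelled gonads. The summed normalized count of 11 oocyte markers was 50674 to 61855 in females and at most 1188 in males, and that of 11 male germ cell markers was 279 to 530 in females and 12318 to 28809 in males. In the males 3 libraries stood apart: control male replicate 1, 50 μg/L male replicate 2 and 200 μg/L male replicate 2 had the highest summed levels of 10 muscle markers (34328, 20797 and 36342, against 4868 to 13034 in the other 5 males) and of 12 liver markers (27620, 33522 and 34945, against 2259 to 10878). In whole gonads, fewer cells of a type and less RNA per cell cannot be told apart.

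Both genes were well covered. macf1a had from 512 to 1964 reads and daam1a from 223 to 1766. Levels are given as normalized counts, the read count divided by the size factor of the library. They are compared between fish for 1 gene, and such comparisons depend on the scaling, also between the sexes. Gene lengths were not used here, so the level of macf1a was not compared with that of daam1a.

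In the ovary, macf1a read 472 and 435 in the control females. With EM it read 850 and 842 in the fish at 50 μg/L, 762 and 992 in those at 100 μg/L, and 840 and 795 in those at 200 μg/L. Every EM-female lay above both controls, and the exposed fish spanned a narrow range. The mean was 847 ± 78.6 (SD, n = 6) in EM-females and 453 ± 26.0 (SD, n = 2) in control females, a ratio of 1.87.

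daam1a, the formin, had nearly the same course in females. It read 440 and 516 in the controls, 934 and 878 at 50 μg/L, 928 and 1084 at 100 μg/L, and 871 and 868 at 200 μg/L. Again each EM-female lay above both controls, and the single highest fish was replicate 2 at 100 μg/L, which was also the highest female for macf1a. The mean was 927 ± 81.9 (SD, n = 6) against 478 ± 53.6 (SD, n = 2), a ratio of 1.94.

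In the fit across all genes, EM-females relative to control females had a log2 fold change of 0.87 (SE 0.115) for macf1a and 0.93 (SE 0.120) for daam1a. The median of the 15907 genes tested was 0.01. macf1a ranked 1333rd and daam1a 1217th from the highest, so that many genes had larger positive values. Neither value has a p here, because this contrast chose the genes. In it, 9.13% of the genes tested had every EM-female above both control females, and 0.0126% passed an adjusted p of 0.05 in either direction (2 genes, edgeR quasi-likelihood test). Of all genes, 1867 had an unadjusted p under 0.05, and DESeq2 called 398. Over 14 alternative settings the values stayed between 0.82 and 0.93 for macf1a and between 0.81 and 1.06 for daam1a.

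**Figure D1:**
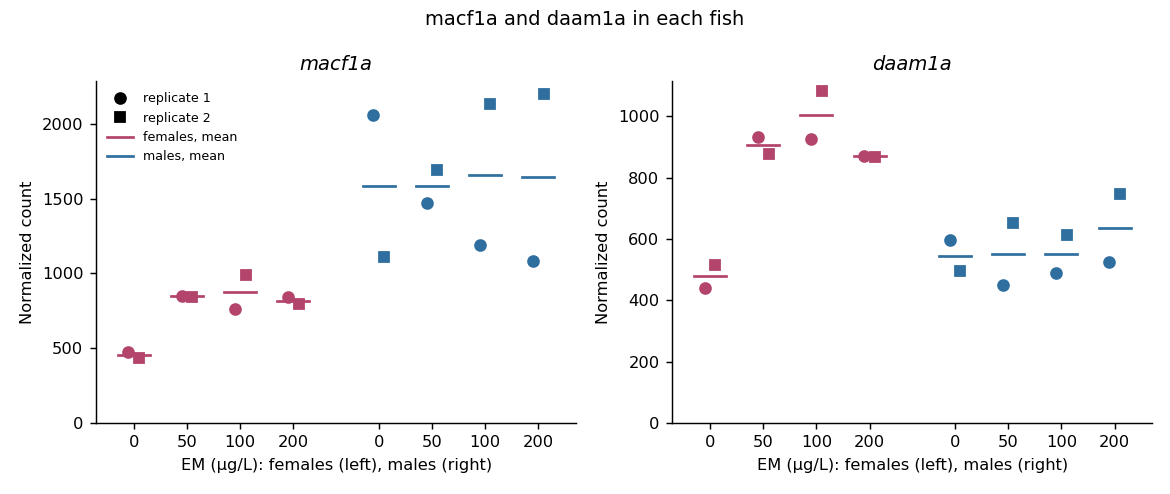
Normalized count of macf1a (left) and daam1a (right) in each of the 16 fish against EM concentration in μg/L, with females on the left of each panel and males on the right. Circles are replicate 1, squares replicate 2 and lines the mean of the 2 fish. All 6 EM-females lie above both control females for each gene. Among males the groups overlap, and control male replicates 1 and 2 of macf1a read 2056 and 1106.

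Of the summed cell type markers, only those of follicle cells did not overlap between EM-females and control females. Of all single genes tested, 9.13% had every EM-female above both controls. The 12 follicle cell markers summed to 91.1 to 180 in EM-females and to 25.5 and 37.5 in control females, without overlap. This list is not particular to the ovary. In the testis it summed to 4748 to 12798 in EM-males and to 9977 and 14321 in control males. Most of the sum came from gsdf, a growth factor of gonadal somatic cells (22.9 to 89.5 against 10.2 and 13.6), and cyp19a1a, the ovarian aromatase, which reached 111 but overlapped the controls (3.40 and 3.98). The receptor FSHR was at 0 in both control females and reached 1.33 in EM-females. None of the follicle cell genes that were tested passed the threshold. The 11 oocyte markers overlapped, at 52189 to 60980 in EM-females and 50674 and 61855 in controls. The sum of the 7 steroidogenic cell markers went the other way, with 1371 to 3499 in EM-females and 3486 and 4359 in controls. All EM-females but 200 μg/L female replicate 2 lay below both controls. Of its main genes cyp11a1 read lower (355 to 1928 against 1672 and 3229, log2 fold change -1.44, edgeR adjusted p = 0.486). The values of cyp17a1 and hsd3b2 were -0.03 and 0.26, and each of these genes overlapped the controls. None of the steroidogenic genes that were tested passed. The part of these markers in the difference of macf1a and daam1a was not tested.

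Whether the exposed females followed the concentration was asked within the 6 EM-females. The same 6 values took part in the choice of the genes, which pooled the 3 concentrations, so that only their order by concentration is open to a test. Relative to the control mean, macf1a stood at 1.87 in the fish at 50 μg/L, 1.93 in those at 100 μg/L and 1.804 in those at 200 μg/L, and daam1a at 1.90, 2.105 and 1.82. The slope per doubling of the concentration was -0.02 on the log2 scale for macf1a (95% interval -0.19 to 0.16, edgeR adjusted p = 1.00). For daam1a it was -0.02 (95% interval -0.19 to 0.15, edgeR adjusted p = 1.00). Exact permutation of the concentrations, two-sided, gave p = 0.822 for macf1a and 0.756 for daam1a, where 0.0222 is the smallest possible. No trend was detected for either gene, and the trend called 0% of 14854 genes (627 with an unadjusted p under 0.05, 109 called by DESeq2).

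The spread among exposed females was small. The coefficient of variation over the 6 EM-females was 9.28% for macf1a and 8.83% for daam1a, where the median of 10034 genes was 18.1%. Of these genes, 15.7% varied less than macf1a and 14.1% less than daam1a. The EM-female values took part in the choice of macf1a and daam1a, so their place among these genes is a description only. In the 6 EM-males the coefficient of variation was 28.7% for macf1a and 19.3% for daam1a, beside a median of 37.0% over 12926 genes. In neither sex were the genes compared matched for level.

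In the testis, macf1a read 2056 and 1106 in the control males. It read 1472 and 1693 at 50 μg/L, 1190 and 2130 at 100 μg/L, and 1085 and 2198 at 200 μg/L. The controls spanned nearly the whole range of the exposed males. The mean was 1628 ± 467 (SD, n = 6) in EM-males and 1581 ± 672 (SD, n = 2) in control males, a ratio of 1.03.

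daam1a read 596 and 495 in the control males, 450 and 654 at 50 μg/L, 488 and 613 at 100 μg/L, and 525 and 745 at 200 μg/L. Both controls lay inside the range of the exposed males. The mean was 579 ± 112 (SD, n = 6) against 546 ± 71.3 (SD, n = 2), a ratio of 1.06.

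These males took no part in the choice of the genes, so the difference could be tested. For macf1a, EM-males relative to control males had a log2 fold change of 0.03 (SE 0.366, 95% interval -0.79 to 0.85, edgeR adjusted p = 0.997). For daam1a it was 0.07 (SE 0.278, 95% interval -0.56 to 0.69, edgeR adjusted p = 0.989). Exact permutation of the 8 fish, two-sided, gave p = 0.821 and 0.714, where 0.0357 is the smallest possible. Neither gene differed beyond the spread between fish. The comparison called 0.00515% of 19417 genes (1 gene, with 1188 at an unadjusted p under 0.05 and 126 called by DESeq2). The macf1a value turned on the controls: it was 0.51 without control male replicate 1 and -0.32 without control male replicate 2. The summed markers that read lower in EM-males without overlap were the 7 steroidogenic cell markers, with 4162 to 7969 in EM-males and 13797 and 17719 in control males, and the 5 Sertoli cell markers, with 522 to 2031 and 2348 and 2979. Few genes carried these sums. Of the steroidogenic genes only insl3 (2036 to 5114 against 11037 and 13230) and cyp17a1 (102 to 415 against 434 and 735) did not overlap. Of the Sertoli cell genes only amh did not (341 to 1743 against 1850 and 2754). The share of all genes with every EM-male below both control males was not counted. The lack of overlap in these genes and sums is therefore a description only. The part of these markers in the male values of macf1a and daam1a was not tested. Whether the response differed between the sexes was not tested, because its female part chose the genes.

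Among EM-males, the slope per doubling of concentration was 0.04 for macf1a (95% interval -0.48 to 0.57, edgeR adjusted p = 0.988). It was 0.12 for daam1a (95% interval -0.30 to 0.54, edgeR adjusted p = 0.940). Exact permutation gave p = 0.933 and 0.533, two-sided, and the trend called 0% of 17541 genes (768 with an unadjusted p under 0.05, 67 called by DESeq2). Without 200 μg/L male replicate 2, the highest male for both genes, the slopes were -0.21 for macf1a and -0.025 for daam1a.

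The spread of the males was seen on each scale. Of the 3 male libraries rich in muscle and liver markers, 200 μg/L male replicate 2 and control male replicate 1 had the highest and the third highest normalized count of macf1a. In CPM, the reads of a gene scaled by all reads on genes of its library, the control males read 190 and 165 for macf1a and the EM-males 139 to 293. On that scale 100 μg/L male replicate 2 was the highest for both genes, at 293 for macf1a and 84.3 for daam1a, and control male replicate 1 was the lowest male for daam1a, at 55.2. Over the 8 males the coefficient of variation was 29.1% in normalized counts and 23.8% in CPM for macf1a, and 17.4% and 13.04% for daam1a. The part of the muscle and liver markers in this spread was not tested.

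**Figure D2:**
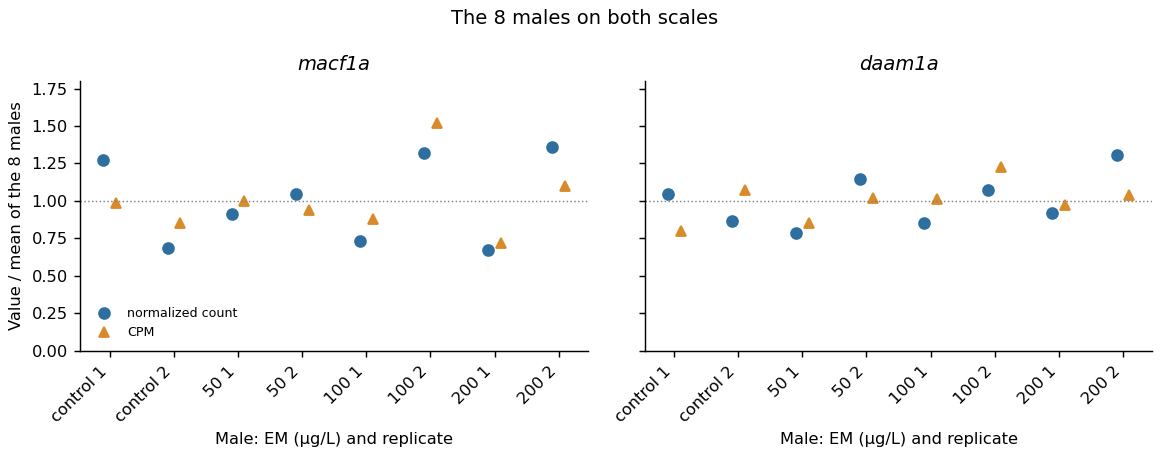
Level of macf1a (left) and daam1a (right) in each male divided by the mean of the 8 males, as normalized count (circles) and as CPM (triangles); the x axis gives the EM concentration in μg/L and the replicate. Control male replicate 1 reads 1.27 on the first scale and 0.987 on the second for macf1a, while 100 μg/L male replicate 2 is high on both.

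Between the exposed sexes the genes went opposite ways. macf1a was 762 to 992 in EM-females and 1085 to 2198 in EM-males, and daam1a was 868 to 1084 in EM-females and 450 to 745 in EM-males. Neither gene's groups overlapped. The EM-female values were high in the contrast that chose the genes, which favours the direction of daam1a and goes against that of macf1a, so daam1a is described here without a test. Of all 20487 genes tested, 36.1% had every EM-male above every EM-female and 21.3% every EM-female above every EM-male.

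macf1a was 1.61-fold higher in EM-males (log2 difference, females minus males, -0.69, SE 0.193, 95% interval -1.11 to -0.27, edgeR adjusted p = 0.00599). daam1a was 1.92-fold higher in EM-females (log2 difference 0.94, SE 0.155). Both folds are with TMM scaling. With DESeq2's size factors in place of TMM the log2 differences were -0.90 for macf1a and 0.72 for daam1a. Exact permutation of the 12 fish on normalized counts gave p = 0.002165 for macf1a, two-sided, the smallest possible. Any gene whose groups do not overlap reaches that value. The EM-female values of macf1a took part in its choice, so neither p is independent of it. Most genes differ between ovary and testis: 44.6% passed as higher in males and 32.5% as higher in females.

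The scale matters here, because the median log2 difference of all genes was -0.47 with TMM scaling, -0.69 with DESeq2's size factors and -0.60 with library size alone. Relative to that median, macf1a stood at -0.215, -0.215 and -0.188, so that most of its difference was shared by the median gene. daam1a stood at 1.41, 1.41 and 1.43 above it. Under 19 alternatives both genes kept their direction, daam1a between 0.72 and 1.17 and macf1a, which passed in each, between -0.90 and -0.445. The values nearest to and farthest from 0 came without 50 μg/L male replicate 2 and 200 μg/L male replicate 2, a setting chosen after the data were seen, with -0.445 (edgeR adjusted p = 0.0416) for macf1a and 1.17 for daam1a.

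In the unexposed fish, described without a test, macf1a averaged 1581 in control males and 453 in control females, a ratio of 3.49. daam1a averaged 546 and 478, a ratio of 1.14, and control male replicate 2 (495) lay below control female replicate 2 (516). The control females took part in the choice of the genes, so with 2 fish per sex these ratios are a description only.

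The ratio of the 2 genes' read counts does not depend on library scaling. It was 1.07 and 0.843 in control females and 0.821 to 0.965 in EM-females (0.914 ± 0.051, SD, n = 6). In control males it was 3.45 and 2.23 and in EM-males 2.07 to 3.48 (2.80 ± 0.531, SD, n = 6). The lowest male was above the highest female. The EM-female values of both genes took part in their choice, so the ratio is described between the sexes without a test. Between EM-males and control males the exact permutation p was 1.00, two-sided. Within EM-females the ratio had no detected trend with concentration (exact permutation p = 0.889), nor within EM-males (exact permutation p = 0.467). The ratio of every EM-female lay between those of the control females, except for replicate 1 at 100 μg/L.

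**Figure D3:**
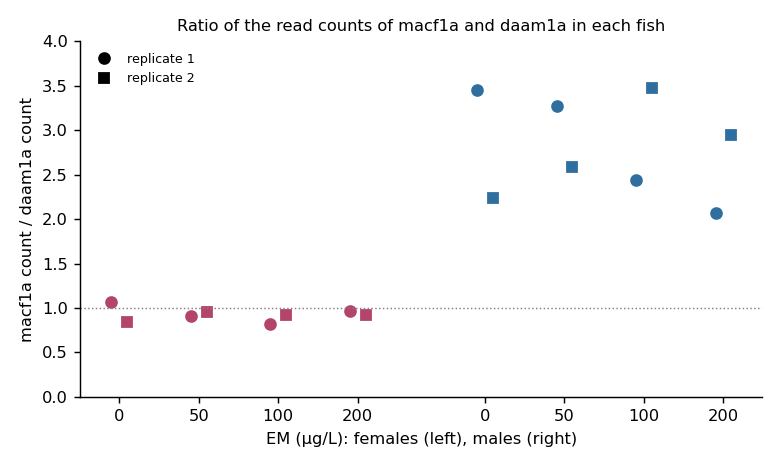
Read count of macf1a divided by that of daam1a in each of the 16 fish against EM concentration in μg/L, females left and males right, circles for replicate 1 and squares for replicate 2. Females lie between 0.821 and 1.07 and males between 2.07 and 3.48. The ratio reflects gene length and is compared only between fish.

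Across fish of 1 sex the genes were also compared with each other, as 2 relations on log2(normalized count + 1). Over the 8 males Pearson's r was 0.763 (exact permutation p = 0.0357, adjusted 0.0714) and Spearman's rank correlation 0.690 (exact permutation p = 0.0694, adjusted 0.139). Without the 2 fish farthest from the median r was 0.786. In CPM r was 0.426 (exact permutation p = 0.289) and -0.31 without the 2 farthest fish, so that the value depended on the scale. Over the 6 EM-females r was 0.781 (exact permutation p = 0.101) and Spearman's rank correlation 0.657 (exact permutation p = 0.175), and r was 0.574 without the 2 farthest fish. Neither relation passed after adjustment. In each EM-male group replicate 2 read above replicate 1 for both genes in normalized counts, while in CPM the order was the other way for macf1a at 50 μg/L. The relation was not computed without the 3 male libraries rich in muscle and liver markers, nor within a replicate number.

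The nearest relatives of the 2 genes were read in the same fish. macf1b, the other zebrafish copy of Macf1, had 2.12 to 9.31 normalized counts in females. It had 6.69 to 58.6 in EM-males and 7.62 and 10.7 in control males, with a log2 fold change of 2.015 (SE 0.813, edgeR adjusted p = 0.8025). Its log2 fold change in EM-females over controls was -0.11 (SE 0.746, edgeR adjusted p = 0.977), and it was higher in EM-males than in EM-females (log2 difference -2.60, edgeR adjusted p = 3.86e-04). DST, the spectraplakin dystonin, read 109 and 10.2 in control females and 39.8 to 321 in EM-females, so that its groups overlapped. Its log2 fold change there was 0.85 with an SE of 1.09 (edgeR adjusted p = 0.813), about the size of that of macf1a with a far larger error. DST was higher in EM-males, at 432 to 2349 (log2 difference -3.11, edgeR adjusted p = 1.35e-04). Its highest EM-males were replicate 2 at 200 μg/L (2349) and replicate 2 at 50 μg/L (1189), the libraries rich in muscle and liver markers, and without them the difference was -2.71 (edgeR adjusted p = 0.00219).

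The other gene that the reference table names DAAM1 (ENSDARG00000009689) read 124 and 97.7 in control females and 64.1 to 140 in EM-females. Its log2 fold change was -0.23 (SE 0.324, edgeR adjusted p = 0.831). Between EM-females and EM-males it was 0.30 (edgeR adjusted p = 0.504), and 0.76 without those 2 male libraries (edgeR adjusted p = 0.0590). daam2 reached at most 13.02 normalized counts in any fish, was at 0 in both control females and was too low to be tested. Reads that matched more than 1 place were not counted, and how they divide between such copies was not tested.

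**Figure D4:**
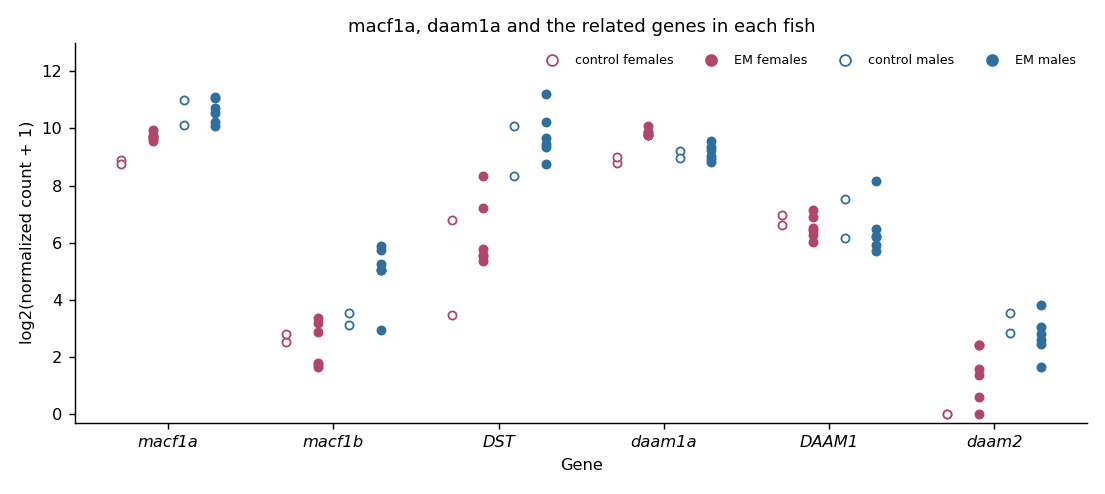
log2(normalized count + 1) of macf1a, macf1b, DST, daam1a, the other gene named DAAM1 and daam2 in each fish, with open points for controls, filled points for EM fish, red for females and blue for males. Control and EM-females separate for macf1a and daam1a, which were chosen on that contrast, and overlap for macf1b, DST and DAAM1. Levels differ between genes also through length and are not compared between genes.

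Around the 2 genes stand the families and pathways they belong to, listed by role and counted without macf1a and daam1a. In EM-females over control females 0 genes of any of the 6 lists passed (edgeR adjusted p of 0.05), beside 0.0126% of all genes. Medians are given on the log2 scale beside the 0.01 of all genes. Counts are to be read beside all genes tested, of which 9.13% had every EM-female above both controls and 11.7% an unadjusted p under 0.05. DESeq2 called 398 of all genes. Its share of the genes it tested was not counted, so its counts per list are a description only. Plakins and spectraplakins, the crosslinkers of the macf1a family, had 0.15 over 7 tested genes. Formins, the family of daam1a, had -0.18 over 12, with 4 positive. In neither family did a tested relative have every EM-female above both controls, and none had an unadjusted p under 0.05 or a DESeq2 call.

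The formin with the highest value among those well measured was DIAPH3, a diaphanous-type formin, at 0.47 (SE 0.219, edgeR adjusted p = 0.448), and the lowest was fhod1, at -0.50 (SE 0.238, edgeR adjusted p = 0.460). FHOD3, another formin, had 0.28 (edgeR adjusted p = 0.798). Of the plakins PPL, which encodes periplakin, had 0.72 (SE 0.896, edgeR adjusted p = 0.810). The highest plakin, pleca, a plectin named after its value was seen, had 1.43 (SE 0.764, edgeR adjusted p = 0.508) at 2.12 to 13.7 normalized counts in EM-females. None of these passed.

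Wnt planar cell polarity and small GTPase signalling, upstream and beside Daam1, had a median of -0.05 over 34 genes. There 4 genes had every EM-female above both controls and 5 had an unadjusted p under 0.05. The protein kinase ROCK1, which acts on myosin and actin, had 0.51 (edgeR adjusted p = 0.335), while the polarity gene PRICKLE3 had -1.09 (edgeR adjusted p = 0.311) and prickle1a -0.30 (edgeR adjusted p = 0.622). Values thus lay on both sides of 0.

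Proteins of microtubule ends, to which Macf1 binds, had a median of 0.03 over 23 genes, with 3 genes above the controls in every EM-female, 4 at an unadjusted p under 0.05 and 2 called by DESeq2. The plus-end tracker clip1a had 0.70 (SE 0.140, edgeR adjusted p = 0.181) and the minus-end protein camsap3 0.61 (SE 0.180, edgeR adjusted p = 0.277). camsap1b had -0.68 (SE 0.195, edgeR adjusted p = 0.271) and clasp1a -0.27 (edgeR adjusted p = 0.721).

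Actin assembly and actin binding had the highest median, 0.24 over 43 genes, and 16 of these had every EM-female above both controls. In this list 15 genes had an unadjusted p under 0.05 (of all genes, 9.13% and 11.7%) and DESeq2 called 3. The adhesion protein vinculin, vclb, had 1.53 (SE 0.333, edgeR adjusted p = 0.185), with 51.9 to 97.85 normalized counts against 27.1 and 27.2. WASF3, an activator of the Arp2/3 complex, had 1.36 (edgeR adjusted p = 0.695). The crosslinker filamin A, flna, had -1.13 (edgeR adjusted p = 0.414) and the capping subunit capza1b -0.66 (edgeR adjusted p = 0.770).

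The Balbiani body and oocyte polarity list, in which macf1a has its known role in the oocyte, had a median of 0.09 over 20 genes. In it 6 genes had every EM-female above both controls, 5 had an unadjusted p under 0.05 and DESeq2 called 3. The germ plasm helicase ddx4 (vasa) had 0.56 (SE 0.118, edgeR adjusted p = 0.182) and piwil1, a Piwi protein that binds small RNA, 0.54 (SE 0.131, edgeR adjusted p = 0.227). grip2a had -0.45 (SE 0.120, edgeR adjusted p = 0.244) and the RNA-binding igf2bp3 -0.28 (edgeR adjusted p = 0.583). buc, which builds the Balbiani body, had 0.19 (SE 0.093, edgeR adjusted p = 0.477).

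**Figure D5:**
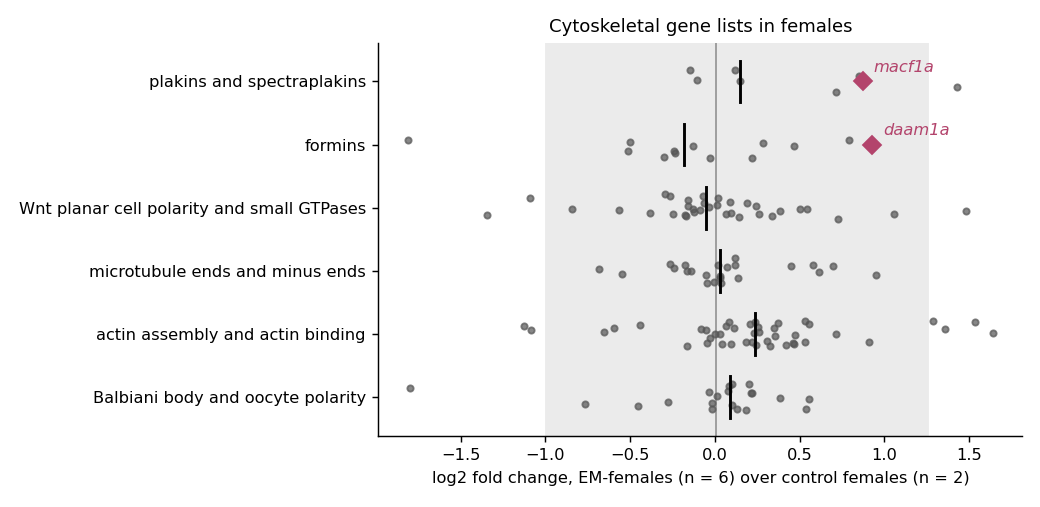
log2 fold change of EM-females (n = 6) over control females (n = 2) for the tested genes of 6 lists (grey points, jittered vertically) with the list median as a black bar; the diamonds are macf1a (0.87) and daam1a (0.93), which are not counted in the medians. The grey band spans the 5th to the 95th percentile of all 15907 genes, from -0.998 to 1.26, and the line is their median. The diamonds were chosen on this contrast, so their place is a description; both lie inside the band.

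In EM-males over control males, and in the concentration trends of either sex, 0 genes of these lists passed with edgeR. Between the exposed sexes, genes of every list passed, beside 44.6% of all genes higher in males and 32.5% higher in females. None of the 9 plakins tested was higher in EM-females and 7 were higher in EM-males, as was macf1a. Of 15 formins 3 were higher in EM-females and 9 in EM-males. plecb, a plectin, read 6.19 to 43.1 in EM-females and 884 to 1442 in EM-males (log2 difference -5.29, edgeR adjusted p = 5.03e-08). dspa, a desmoplakin, had -4.59 (edgeR adjusted p = 7.47e-04). Among formins DIAPH3 had 4.115, fmn2b 1.72 and FHOD3 1.69 on the log2 scale, the 3 that were higher in EM-females. FMNL1 read 0.79 to 3.99 in EM-females and 300.0 to 490 in EM-males, and fhod3a 2.65 to 7.90 against 223 to 623. The counts in these families were the same with DESeq2's size factors, with library size alone and without the 2 EM-male libraries rich in muscle and liver markers.

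In the other lists the split was more even. Of 41 planar cell polarity and small GTPase genes 18 were higher in EM-females, with ptk7a at 4.35, and 17 in EM-males. With DESeq2's size factors the first count was 15, so that the order turned. Of 25 genes of microtubule ends 10 were higher in EM-females, clip1a (3.39) and camsap3 (3.52) among them, and 11 in EM-males. Of 48 actin genes 25 were higher in EM-females, with spire2 at 4.37 and cap1 at 4.02, and 15 in EM-males. Of 20 Balbiani body genes 10 were higher in EM-females and 4 in EM-males, with buc at 6.63 and buc2l at 7.845 against piwil1 at -2.66 and dazl at -1.92. macf1a, at -0.69, had the sign of piwil1 and dazl but lay near the median of all genes, -0.47. Of all genes, 44.6% passed as higher in males.

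Over the 16 libraries the log2(normalized count + 1) of macf1a was compared with that of 12810 genes with a mean of at least 50. Those that ran most like it were CALCOCO1 (ENSDARG00000036695), dock10, timp2a, GMEB1 and krt91, with Pearson's r of 0.955, 0.938, 0.935, 0.934 and 0.933. Like macf1a they were lowest in control females: dock10, an exchange factor for small GTPases, read 22.9 and 46.2 there, 61.3 to 107 in EM-females and 173 to 560 in EM-males. The genes most like daam1a were nbr1a, CYRIA, YIPF2, kat6b and pex19, with r of 0.853, 0.845, 0.833, 0.828 and 0.828. pex19, a receptor for peroxisomal membrane proteins, read 516 and 586 in control females, 784 to 939 in EM-females and 230 to 554 in EM-males. The r between macf1a and daam1a over the 16 libraries was -0.04. These values describe 16 points that share the sexes, the tanks and the scaling.

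Over the 8 males alone, among 13001 genes, macf1a ran most like usp33, si:ch73-138n13.1, gnptg, itga2b and ramp2, with r of 0.975 to 0.933. daam1a ran most like crp3, COBL, khnyn, NEDD4 and KIF16B (ENSDARG00000080018), with r of 0.969 to 0.954. These 8 include the 3 libraries rich in muscle and liver markers, whose part in the order was not tested. COBL, an actin nucleator, read 182 to 1674 in EM-males and 401 and 864 in control males. Neither set of 5 shared a gene with the set over the 16 libraries.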

How the data were processed

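Reads of 16 gonad libraries (2 fish per sex and concentration) were processed by the authors with HISAT2 2.0.5, SAMtools 1.5 and HTSeq 0.9.1 on GRCz11, per the submitters' processing notes. The authors deposited whole-number read counts for 32520 genes, counted by strand after duplicate removal, and 5 tallies of reads not assigned to a gene. The tallies held 50.8% to 66.3% of all reads, those on genes and in tallies together, and were left out. Reads not unique alone were 24.8% to 36.7% of all. The authors also deposited a normalized signal for 28353 genes, the counts divided by DESeq2 size factors (0.374 to 1.89). It matched recomputed values within 5.57e-08%. In 1 row a cell held 2 values and was read as such.

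The 2 genes and the gene and marker lists were chosen with earlier results of these data known. Names came from the paper's tables (4382 genes) and a reference table (24888 more). List symbols were also matched without the paralog letter. No sequence of the 2 genes was used here.

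The test on the counts was the robust quasi-likelihood F-test of edgeR 4.0.16 (R 4.3.3, two-sided, TMM, filterByExpr) on the libraries compared, with Benjamini-Hochberg adjustment over all genes and a threshold of 0.05. Trends used log2 concentration, and the comparison of the sexes had concentration as a factor. Single values were compared by exact permutation of fish with scipy 1.17.1. The alternatives were DESeq2 1.42.0, its size factors in edgeR, a filter of 1 count only, all 16 libraries in 1 model, a replicate block and each library left out. Library size without normalization factors, and leaving out 2 male libraries together, were added after seeing the data. Fish with the same replicate number are different animals. Their deviations correlated at over 0.1 in all 3 pairs of EM-male groups (0.141 to 0.299) and in no pair of groups with females. Between control males and EM-males they ran the other way, at -0.198, -0.253 and -0.293. Replicate 2 of each EM-male group, and replicate 1 of the control males, had the higher sums of muscle and of liver markers. The labels do not say what the numbers mark, and the part of these markers was not tested. The script was tested on simulated data. Named list genes were the 2 highest and 2 lowest in EM-females over controls with a mean of at least 50 normalized counts, and up to 3 called per list, comparison and direction, of which some are named and some are not reported here; buc and the genes of like pattern (5 per gene) were named besides. The depth per library limits the precision, and intervals cover the spread between these fish.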

Additional observations from a re-analysis of the deposited data

Results flagged for a closer look

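daam1a in the 6 EM-females was flagged because 1 fish stood far from the others: replicate 2 at 100 μg/L read 1084 (1083.58) normalized counts, where the others read 868 to 934. The gap made up 0.694 of the whole range, above the critical value of 0.625 for 6 samples. The same fish was the highest female for macf1a, at 992, where the other EM-females read 762 to 850. The rule did not flag it there. The other gene named DAAM1 was flagged in the 6 EM-males, where 200 μg/L male replicate 2 read 283 (283.289) and the others 50.9 to 87.9, a gap of 0.841 of the range. That library is also the one with the highest sum of muscle and of liver markers. Chance sets apart about 1 in 20 such groups, and 12 were checked.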

How the results depend on the processing

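With each fish left out in turn, the log2 fold change in EM-males over control males ran from -0.321 to 0.509 for macf1a and from -0.027 to 0.176 for daam1a. The trend among EM-females ran from -0.025 to 0.008 and from -0.062 to 0.003, and that among EM-males from -0.213 to 0.246 and from -0.025 to 0.239. In EM-females over control females daam1a ran from 0.814 to 1.063, the last without control female replicate 2. None of the tests in males or of the trends passed in any setting, so that their signs carry no call. daam1a was chosen on EM-females over control females and has no test there, so its range is a description only. Of 12 same-sex pairs of groups, the 3 among EM-males had a correlation of same-numbered deviations over 0.1, and the lowest were those with control males (to -0.293). With the replicate block macf1a was -0.040 in EM-males over controls (edgeR adjusted p = 0.992) and -0.008 in the trend among EM-males, where the numbers went together, and daam1a was 0.117 there (edgeR adjusted p = 0.926); the block changed no call of either gene. With library size alone, a setting added after seeing the data, the trend among EM-males was -0.046 for macf1a and 0.054 for daam1a. The correlation of the genes over the 8 males fell to 0.426 in CPM. The cause was not tested. In the comparison of the sexes macf1a kept its call and daam1a its direction in all 19 alternatives. Counts of called genes moved more: DESeq2 called 277 higher and 121 lower in EM-females, 82 and 44 in EM-males, 69 and 40 in the female trend and 50 and 17 in the male trend. edgeR called 2 and 0 in EM-females (0 to 10 of either direction with a fish left out, 1 higher in the model of all 16 libraries, 3 higher and 4 lower without the filter, 1 lower with the block or with DESeq2's size factors), 0 and 1 in EM-males (0 to 7 lower with a fish left out, 0 with the block or in the model of all 16 libraries), and 0 in the trends (1 higher in the male trend in the model of all 16 libraries). With 2 control fish per sex, a change smaller than the intervals given could not be detected.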
